A study of Mus musculus with 4 samples.

Results

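The genes described here encode small nucleolar RNAs (snoRNAs) and 3 other short noncoding RNAs, measured in mouse bone marrow-derived macrophages with and without the cytokine IL-4 and with and without the transcription factor Stat6. Members were chosen by name. They were the genes whose annotated symbol starts with Snord or Snora followed by a digit, together with Rny1, Rny3 and Vaultrc5. The group itself was selected on the comparison of IL-4 with medium in macrophages without Stat6. Only probesets annotated with exactly 1 symbol counted, and a gene with several of them was represented by the one with the highest mean over the arrays. The rule gave 54 of the 19938 genes that could be named, of which 31 were Snord and 20 were Snora genes. A floor was set at 2.52, the median log2 signal of all probesets with 1 symbol, and 36 members reached it on at least 1 array. The 36 comprised 20 Snord genes, 13 Snora genes and the other 3.

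Each of 4 groups was measured on 1 whole-transcript array: macrophages from 4get/Stat6-/- mice with IL-4, macrophages from 4get/Stat6-/- mice in medium, BALB/c wild-type macrophages with IL-4 and the same in medium. The 4get/Stat6-/- mice lack Stat6, which the IL-4 receptor activates, and carry the 4get reporter of IL-4 transcription, so Stat6 loss cannot be told apart from other differences between these mice and BALB/c mice. All cells were grown from bone marrow for 7 days with 10% supernatant of L929 fibroblasts as the source of M-CSF, were then cultured for 24 h, and were sorted for F4/80 before RNA isolation. The sample protocols give the IL-4 dose as 10 µg/mL and the series text gives it in mg/mL. Age, sex and the number of mice are not given in the labels. With 1 array per group no difference has a replicate check, and none was tested. A gene was said to rise or fall where the log2 difference was at least 1 (2-fold) and the higher array reached the floor. For the difference between the IL-4 effects of both genotypes, it was the highest array of all 4 that was held to the floor.

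SnoRNAs work in the nucleolus as guides for the chemical modification of ribosomal RNA. Box C/D snoRNAs (Snord genes) direct 2′-O-methylation by the methyltransferase fibrillarin, and box H/ACA snoRNAs (Snora genes) direct pseudouridylation by dyskerin, while a few of both classes are needed for cleavage of the ribosomal RNA precursor. Most mammalian snoRNAs are cut out of introns of host genes, many of which encode ribosomal proteins or are noncoding genes with little other known function. Y RNAs (Rny1 and Rny3) and the vault RNA (Vaultrc5) are made from their own genes by RNA polymerase III. Y RNAs are bound by the protein Ro60, and vault RNA is a component of the large cytoplasmic vault particle.

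In the RefSeq gene table, 50 of the 54 members lay inside the span of a longer gene, and these hosts numbered 40. Ribosomal protein genes held 21 of the 50. Strand was not checked, and 3 members lay in more than 1 gene, of which a noncoding snoRNA host was taken first and a protein-coding gene next. The 4 members with no host were Rny1, Rny3, Vaultrc5 and Snord118, the U8 snoRNA. Annotated lengths ran from 45 to 148 nucleotides for Snord genes (median 68) and from 61 to 205 for Snora genes (median 125).

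The host genes of the snoRNAs that passed the rule in at least 1 comparison number 8, and the start sequences of 7 are shown because an intronic snoRNA is transcribed from the start site of its host. Each sequence is RefSeq's, on build GRCm38.p6, runs from 30 bases before the start to 50 bases from it on, and is written 5′ to 3′ on the transcribed strand. Capitals mark CTTT, a short pyrimidine word of the kind that opens transcripts of ribosomal protein genes, chosen after the sequences had been seen. It was marked anywhere in the window, so a mark can lie before the start, as in Rpl4, or past it, as in Rpl13a and Rpl10. Overlapping matches were allowed, and AAAG, the form of CTTT on the opposite strand, was in none of the 7.
Rps3, host of Snord15a, chr7:99483660-99483739, minus strand: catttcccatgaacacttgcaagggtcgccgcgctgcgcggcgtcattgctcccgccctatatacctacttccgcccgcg
Rpl4, host of Snord16a, chr9:64173357-64173436, plus strand: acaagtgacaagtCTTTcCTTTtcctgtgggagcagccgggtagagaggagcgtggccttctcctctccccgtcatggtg
Rpl13a, host of Snord33, chr7:45128696-45128775, minus strand: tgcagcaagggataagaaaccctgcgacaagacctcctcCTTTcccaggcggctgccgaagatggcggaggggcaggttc
Nop56, host of Snord57, chr2:130274382-130274461, plus strand: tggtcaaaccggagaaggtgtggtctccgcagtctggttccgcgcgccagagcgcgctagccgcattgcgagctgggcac
Ncl, host of Snord82, chr1:86359406-86359485, minus strand: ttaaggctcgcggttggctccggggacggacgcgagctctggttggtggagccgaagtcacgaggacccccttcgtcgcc
Rack1, host of Snord95, chr11:48800330-48800409, plus strand: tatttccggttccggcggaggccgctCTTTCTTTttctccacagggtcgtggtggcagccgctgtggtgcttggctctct
Rpl10, host of Snora70, chrX:74270786-74270865, plus strand: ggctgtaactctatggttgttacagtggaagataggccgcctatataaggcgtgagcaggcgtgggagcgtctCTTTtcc
CTTT stood in 4 of these 7 windows. Over the 31 hosts in the table, 18 of 33 windows (54.5%) held it, beside 28.6% of 32851 windows of all genes. AAAG was in 12.1% of host windows and 29.4% of all windows. These matches are descriptions of the letters, and Hspa8, the host of Snord14e, is named only.

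The labels were checked on the arrays before the comparisons. Stat6 had a log2 signal of 4.25 with IL-4 and 4.54 in medium in the Stat6-/- macrophages, against 6.68 with IL-4 and 7.34 in medium in wild type, so both Stat6-/- arrays lay below both wild-type arrays. All 9 macrophage markers on the array reached the floor on every array, with medians from 9.09 to 9.65. Of 24 markers of T cells, B cells, neutrophils, mast cells and basophils, fibroblasts and erythroid cells, 5 and 7 reached it on the Stat6-/- arrays with IL-4 and in medium, and 4 and 5 on the wild-type arrays, with no value above 3.41. The log2 of their summed signal was 6.69 and 6.79 in Stat6-/- and 6.63 and 6.65 in wild type, again with IL-4 first. Their part in the results was not tested. The median over all probesets lay between 2.23 and 2.29 on the 4 arrays.

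IL-4 against medium in Stat6-/- macrophages was examined first, because these cells lack Stat6. With 1 array per group, an effect of IL-4 cannot be told apart from other differences between the cultures or arrays. In this comparison 6 members rose and 0 fell: Rny1, Vaultrc5, Snord16a, Snord57, Snord33 and Snord15a. They were 6 of the 35 members that could pass, and 6 of the 54 in all, where 0.240% of the 10410 genes that could pass rose and 0.115% fell. Only 25 genes rose in this comparison, so these 6 were among its 25 largest increases, and members held 10 of the 100 largest. The gene group was selected on this comparison, so the count and the members' later values in this comparison are descriptions. At 1.5-fold, 16 members were higher, where 2.94% of all genes were.

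Rny1 had a log2 signal of 5.95 with IL-4 against 4.18 in medium in Stat6-/- macrophages, and 4.97 against 4.02 in wild type. The Stat6-/- array with IL-4 was the highest of the 4, the wild-type array with IL-4 came next, and both medium arrays lay close together. Its rise was 3.42-fold in Stat6-/-, the second largest of all genes tested. Rny3, the other Y RNA gene, had 10.08 with IL-4 against 9.43 in medium in Stat6-/- and 9.95 against 9.38 in wild type. Both of its IL-4 arrays lay above both medium arrays, with differences of 0.65 in Stat6-/- and 0.57 in wild type, under the rule. Vaultrc5 had 8.18 with IL-4 against 6.99 in medium in Stat6-/-, a rise of 2.27-fold, and 6.49 against 6.54 in wild type. For the vault RNA the Stat6-/- array with IL-4 was the highest, and the wild-type arrays differed by -0.05. The Stat6-/- array in medium came next, 0.46 above the wild-type array in medium.

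Among the box C/D snoRNAs, 4 of the 19 that could pass rose in Stat6-/-, where 0.240% of all genes did. Snord16a, in an intron of Rpl4, had 5.66 with IL-4 against 4.23 in medium in Stat6-/-, and 5.58 against 4.60 in wild type. Snord57, in an intron of Nop56, had 8.25 against 7.17 in Stat6-/- and 7.74 against 7.47 in wild type. The IL-4 arrays of both genotypes lay above both medium arrays for Snord16a and for Snord57. Snord33, in Rpl13a, had 5.94 against 4.88 in Stat6-/- and 5.85 against 4.39 in wild type, so that the IL-4 arrays nearly coincided. Snord15a, in Rps3, had 5.76 against 4.74 in Stat6-/- and 5.32 against 5.18 in wild type. The rises in Stat6-/- were 2.69-fold for Snord16a, 2.11-fold for Snord57, 2.08-fold for Snord33 and 2.02-fold for Snord15a. In human cells the known targets of these guides lie in the RNAs of both ribosomal subunits.

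Just outside the rule stood Snord15b, the second snoRNA of Rps3, with 7.43 against 6.44 in Stat6-/- (a log2 difference of 0.99, beside 1.02 for Snord15a just inside it) and 7.12 against 6.20 in wild type. Snord22, known as U22 and needed to process the RNA of the small subunit, had 5.38 against 4.50 in Stat6-/- and 5.23 against 4.50 in wild type. Both IL-4 arrays were above both medium arrays for each of them. Snord42a in Rpl23a had 4.65 against 4.03 in Stat6-/- and 4.59 against 3.74 in wild type. Snord47, a guide from the noncoding host Gas5, had 2.70 against 2.02 in Stat6-/- and 3.24 against 2.37 in wild type, with both medium arrays under the floor.

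None of the 13 box H/ACA snoRNAs that could pass rose or fell in Stat6-/-, where 0.240% of all genes rose and 0.115% fell. The nearest were Snora23, in Ipo7, with 4.53 with IL-4 against 3.56 in medium in Stat6-/- and 4.47 against 3.93 in wild type, and Snora16a, in Snhg12, with 5.08 against 4.13 and 4.33 against 3.89. Snora23 and Snora16a had log2 differences of 0.97 and 0.95 in Stat6-/-, just under the rule. Snora52, in Rplp2, had 5.89 against 5.27 in Stat6-/- and 5.69 against 5.20 in wild type. For Snora23, Snora16a and Snora52 the IL-4 arrays did not overlap with the medium arrays. Snora73a and Snora73b, both U17 snoRNAs that take part in cleaving the ribosomal RNA precursor and both from Snhg3, differed by 0.22 and 0.37 in Stat6-/- and by 0.20 and 0.46 in wild type.

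**Figure D1:**
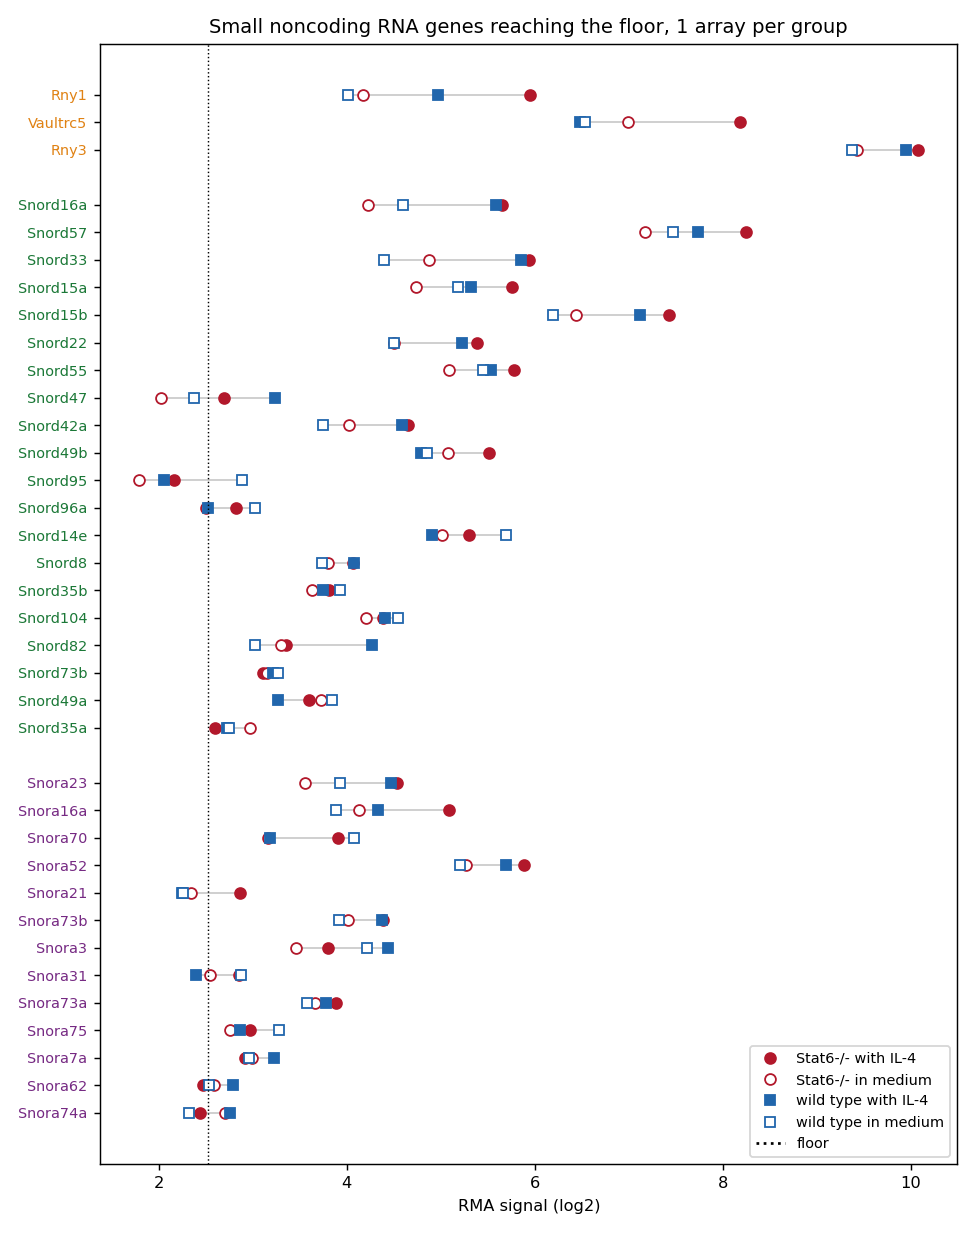
RMA signal (log2, horizontal axis) of the 36 genes that reached the floor, 1 row per gene and 1 symbol per array; red circles are Stat6-/- and blue squares wild type, filled with IL-4 and open in medium, and the dotted line is the floor of 2.52. Rny1, Snord16a, Snord33 and Snord15b show both filled symbols to the right of both open ones, while Vaultrc5 has 1 array, Stat6-/- with IL-4, at 8.18 and the others at 6.99 or less.

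Differences in Stat6-/- were above 0 for 29 of the 35 members that could pass the rule, where 43.3% of all such genes were above 0. The median was 0.44 over the 35 and -0.05 over all genes. With no floor, the median over all 54 members was 0.31, beside -0.02 over all genes. With the floor applied to the mean over the 4 arrays, a filter added after seeing the data that does not favour either array, 28 of 34 members were above 0 with a median of 0.41. The class medians were 0.44 for Snord (19 genes), 0.35 for Snora (13 genes) and 1.18 for the other 3. The gap of 0.09 between Snord and Snora turned to -0.04 with signals raised to the floor.

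Among the 36 members, larger differences in Stat6-/- went with higher mean signal, which is a description. The gene group was selected on this comparison. Mean signal also includes the Stat6-/- array with IL-4, so it and the difference are partly coupled. The 36 members were split at their median mean signal of 4.05. In Stat6-/-, all 18 members at or above this value were above 0 with a median of 0.92 and 6 of them rose, while 12 of the 18 members under it were above 0 with a median of 0.22. Of all 6206 genes with a mean signal at or above 4.05, 38.8% were above 0, 0.226% rose and the median was -0.07. Of the 4592 genes under it, 50.1% were above 0 and the median was 0.0006. Across the 36 members, mean signal and the difference in Stat6-/- correlated at 0.56 (Pearson) and 0.63 (Spearman). Across all 10798 genes above the floor the same correlations were -0.08 and -0.12. Genes are not independent replicates, all points share the same arrays and the part of signal in the size of the differences was not tested.

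In wild-type macrophages, where IL-4 acts with Stat6 present, 2 of 35 members (5.71%) rose, Snord33 and Snord82, and 0 fell. Among all genes that could pass, 2.96% rose and 6.78% fell. At 1.5-fold, 8 members were higher and 3 lower, where 9.05% and 19.2% of all genes were. Snord33 rose 2.75-fold, from the values given above. Snord82, in an intron of the nucleolin gene Ncl, had 4.27 with IL-4 against 3.03 in medium, a rise of 2.37-fold, and in Stat6-/- it had 3.35 against 3.30. The wild-type array with IL-4 stood alone for Snord82. Snord16a (a log2 difference of 0.99), Rny1 (0.96) and Snord15b (0.92) came next, under the rule, followed by Snord47 (0.87) and Snord42a (0.84).

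Differences were above 0 for 22 of the 35 members in wild type, beside 41.1% of all genes, and the median was 0.25, beside -0.11 over all genes. The class medians were 0.11 for Snord and 0.26 for Snora, a gap of -0.15 that turned to 0.10 with no floor. The Snord values were spread from -0.83 to 1.46 and the Snora values from -0.89 to 0.54. Lowest were Snora70 with 3.18 with IL-4 against 4.07 in medium, Snord95 with 2.06 against 2.88, and Snord14e, a U14 snoRNA from the chaperone gene Hspa8, with 4.91 against 5.70. None of these 3 passed the rule. With quantile normalization applied again the number that rose was 5, and the median over all genes was 0.02. It was also 5 with the intensity trend removed, where the median over all genes was -0.005. The share of all genes that rose was not counted under these settings, so these counts are descriptions. Over all genes the median in wild type was between -0.20 and 0.02 under the alternatives.

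**Figure D2:**
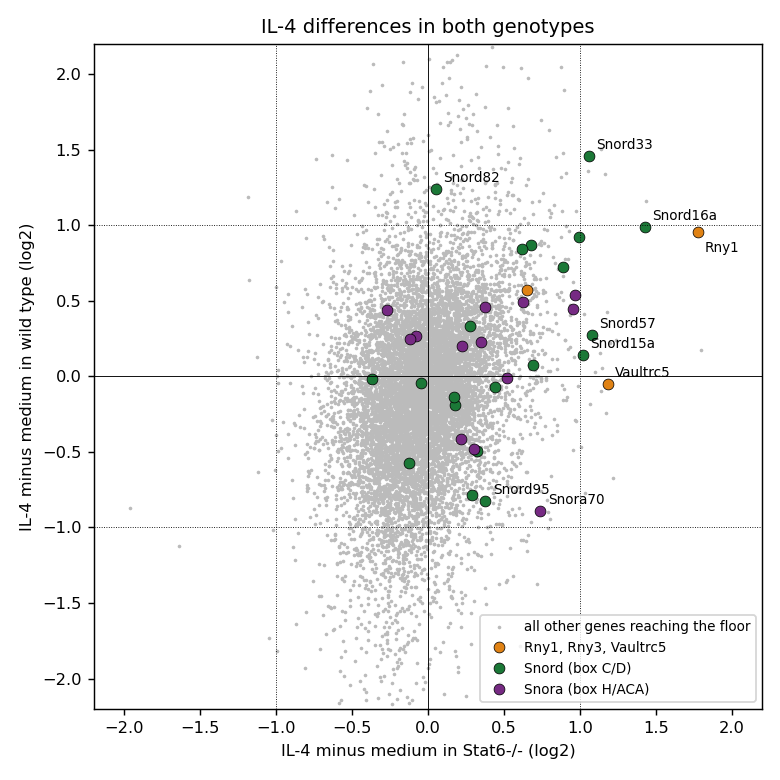
Log2 difference between IL-4 and medium in Stat6-/- (horizontal axis) and in wild type (vertical axis) for each gene that reached the floor; grey dots are all other genes, of which 93 lie outside the axes, and coloured circles are the 36 members. Dotted lines mark a 2-fold difference. Most coloured circles lie right of 0, with Rny1 and Snord16a farthest to the right and Snord33 the only member beyond 2-fold on both axes.

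Taking both genotypes side by side, 18 of the 36 members had both IL-4 arrays above both medium arrays, and 2 (Snord49a and Snord35a) had them below. Among all 10798 genes the shares were 13.0% above and 27.0% below. The 18 comprised 11 of 20 Snord genes, 5 of 13 Snora genes, Rny1 and Rny3. The 2 IL-4 differences share no array, and across the 36 members they correlated at 0.41 by both Pearson and Spearman, beside 0.27 and 0.29 across all genes. The Stat6-/- array with IL-4 was the highest of the 4 for 18 of the 36 members (50%), whereas it was the highest for 15.2% of all genes. The Stat6-/- array in medium was the lowest for 14 members (38.9%), beside 22.6% of all genes. The wild-type array in medium was the lowest for 12 (33.3%), beside 16.7% of all genes. Because the gene group was selected on the Stat6-/- IL-4 comparison, whose arrays enter all these counts, they are descriptions.

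Genotypes were compared next in medium, without added IL-4. Snord95 fell, 1 of 34 members, and 0 rose, where 1.15% of all genes fell and 0.301% rose. At 1.5-fold 0 members were higher and 4 lower, where 2.92% and 7.89% of all genes were. Snord95, 1 of a pair of guides in the ribosomal scaffold gene Rack1, had 1.79 in Stat6-/- against 2.88 in wild type. The Stat6-/- value was under the floor, so the decrease was at least 1.28-fold, and the call was lost with signals raised to the floor, with the higher floor at the 75th percentile and with the floor on the mean. Its neighbour Snord96a had 2.50 in Stat6-/- against 3.02 in wild type. Snora70 had 3.17 against 4.07, Snora3 had 3.46 against 4.21 and Snord14e had 5.01 against 5.70, all under the rule. Above 0 were 17 of the 34 members, beside 36.4% of all genes. The medians were -0.11 for Snord and 0.04 for Snora, beside -0.11 over all genes.

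With IL-4, 1 of 35 members rose in Stat6-/- relative to wild type, Vaultrc5, and 0 fell, where 4.01% of all genes rose and 4.83% fell. At 1.5-fold 6 members were higher and 2 lower, where 10.6% and 12.4% of all genes were. Vaultrc5 had 8.18 in Stat6-/- against 6.49 in wild type, a 3.23-fold higher signal. Rny1 had 5.95 against 4.97, a log2 difference of 0.98 just under the rule. Snora16a had 5.08 in Stat6-/- against 4.33 in wild type, Snord49b had 5.51 against 4.79 and Snora70 had 3.90 against 3.18. In the other direction Snord82 had 3.35 against 4.27, and Snora3 had 3.80 against 4.44. The class medians were 0.08 for Snord and 0.11 for Snora, with -0.0001 over all genes, and 25 of the 35 were above 0, beside 49.6% of all genes.

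Across both cultures few members followed genotype. Both Stat6-/- arrays lay above both wild-type arrays for 3 of the 36 and below them for 3, where the shares over all genes were 13.4% and 24.7%. The genotype differences in medium and with IL-4, which share no array, had a Pearson correlation of 0.09 across the members and 0.30 across all genes.

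The difference between both IL-4 effects, Stat6-/- minus wild type, was at least 2-fold for 5 of the 36 members. Higher were 4, Snora70 (1.63), Vaultrc5 (1.24), Snord95 (1.20) and Snord14e (1.07), where 5.77% of all genes were higher. Snord82 was lower (-1.19), where 3.20% of all genes were lower. At 1.5-fold, 11 members were higher and 2 lower, where 16.4% and 9.83% of all genes were, and 25 of the 36 were above 0, beside 56.0% of all genes. The IL-4 difference was above 0 in Stat6-/- and below 0 in wild type for 11 of the 36, where 20.1% of all genes were so, and the reverse held for 3, where 18.7% were. Of Snord95's 4 signals, 3 were under the floor, and with signals raised to the floor its difference was 0.36. Snora70 had 3.90 with IL-4 against 3.17 in medium in Stat6-/- and 3.18 against 4.07 in wild type, so that the Stat6-/- array with IL-4 and the wild-type array in medium were the high ones. Snord14e had 5.30 against 5.01 in Stat6-/- and 4.91 against 5.70 in wild type. Its difference was 0.93 with quantile normalization applied again and 0.94 with the intensity trend removed, under the rule. The medians were 0.34 for Snord, 0.13 for Snora and 0.07 over all genes.

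**Figure D3:**
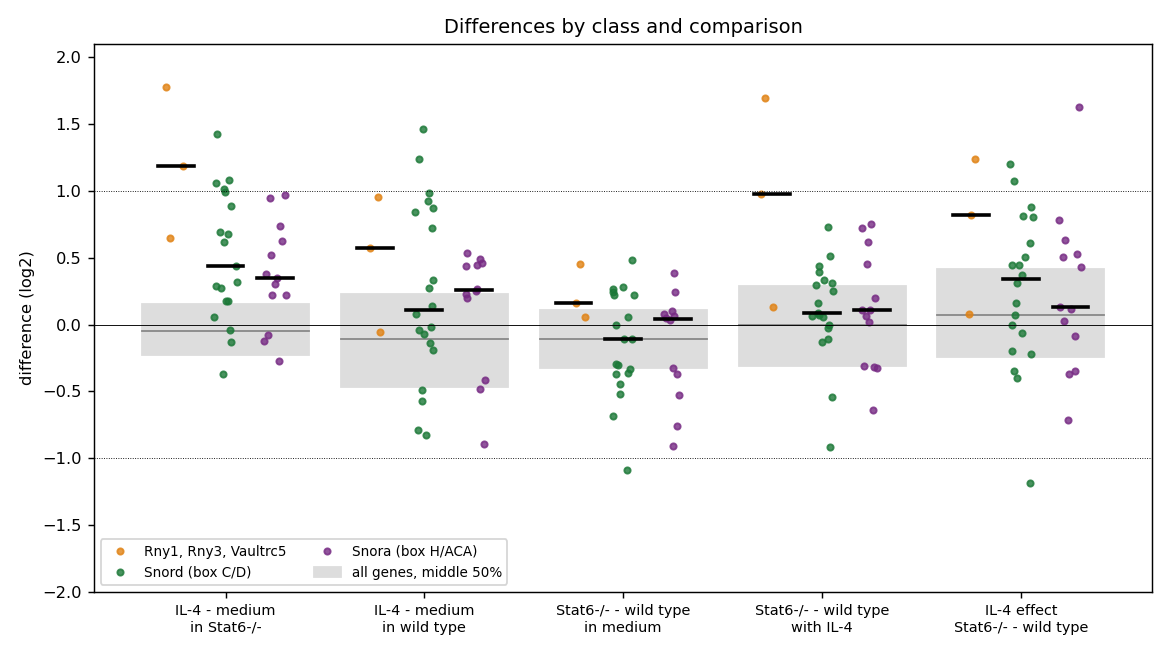
Log2 differences in the 5 comparisons, with 1 dot per gene that could pass the rule and a black bar at the median of each class; the grey box is the middle 50% of all genes with a line at their median, and dotted lines mark 2-fold. In the Stat6-/- IL-4 comparison the medians of 1.18, 0.44 and 0.35 lie above the grey box, and in medium the genotype medians lie within or near it.

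Host genes differed less than their snoRNAs in Stat6-/-, the comparison on which the gene group was selected and the hosts were not. For 18 members above the floor the host was measured by a probeset with 1 symbol, in 16 host genes. In Stat6-/- the median difference was 0.57 for these snoRNAs and 0.12 for the host listed with each, and the snoRNA was above its host in 16 of 18. Host differences ran from -0.31 to 0.39, so 0 of the hosts passed the rule, where 0.240% of all genes rose and 0.115% fell. Rpl4 had 9.73 with IL-4 against 9.85 in medium in Stat6-/- beside the 2.69-fold rise of its Snord16a, and Rps3 had 8.67 against 8.55 beside Snord15a and Snord15b. Nop56, the host of Snord57 and itself a core protein of box C/D particles, had 4.73 against 4.54. Across the 18, snoRNA and host differences had a Pearson correlation of -0.17 in Stat6-/- and 0.25 in wild type.

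In wild type the snoRNA was above its host in 9 of 18, with medians of 0.26 and 0.01. Gas5, a noncoding growth-arrest transcript, had 6.22 with IL-4 against 7.16 in medium, while its Snord47 had 3.24 against 2.37. Both Snora70 and its host Rpl10 were lower with IL-4 in wild type, at 3.18 against 4.07 and at 10.28 against 10.84. A probeset inside an intron can also read unspliced host RNA, and fewer copies of a snoRNA and fewer cells that carry it cannot be told apart in bulk RNA.

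**Figure D4:**
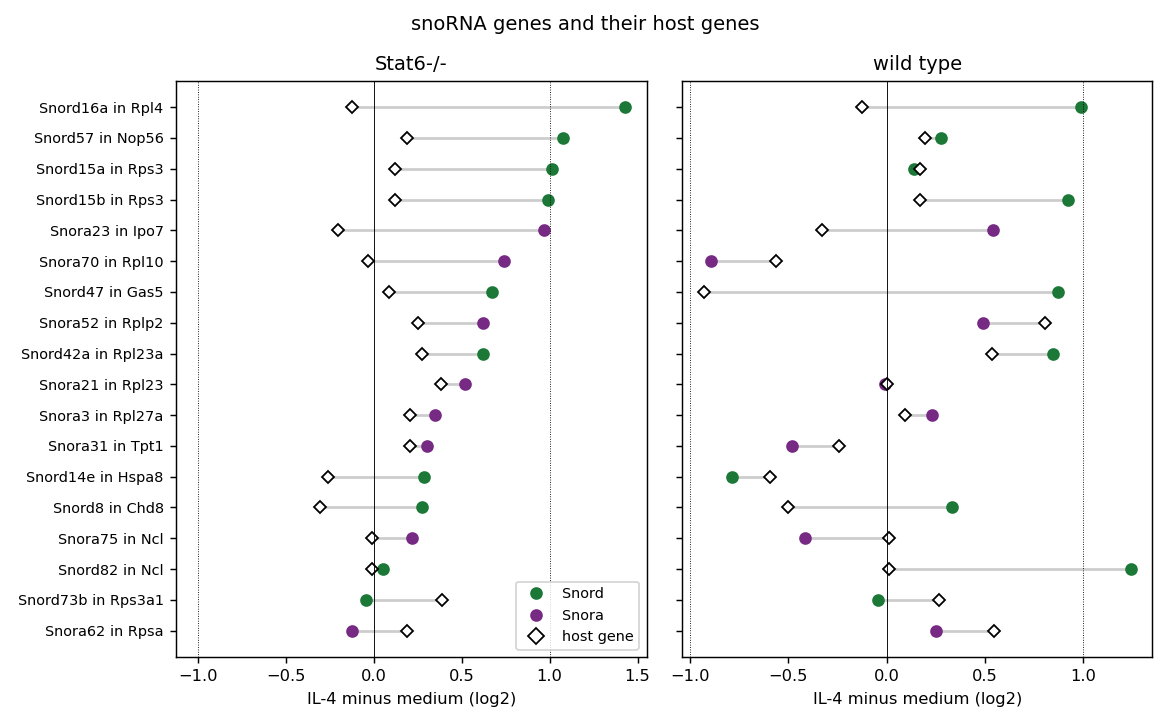
Log2 difference between IL-4 and medium for 18 snoRNA genes (coloured circles) and their host genes (open diamonds) in Stat6-/- (left) and wild type (right), sorted by the snoRNA's difference in Stat6-/-. On the left 16 of 18 circles lie to the right of their diamond, and the diamonds stay between -0.31 and 0.39.

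SnoRNAs of 1 host could differ from each other. Above the floor, 6 hosts held 2 members each. In Rpl13a, whose snoRNAs are known as mediators of lipotoxic stress, Snord33 rose in both genotypes, while Snord35a had 2.60 with IL-4 against 2.97 in medium in Stat6-/- and 2.73 against 2.75 in wild type. The gap between both members was 1.43 in Stat6-/- and 1.48 in wild type on the log2 scale. In Ncl, the wild-type differences were 1.24 for Snord82 and -0.41 for Snora75, a gap of 1.66, while in Stat6-/- the gap was 0.16. Snord15a and Snord15b of Rps3 differed by 0.02 in Stat6-/- and by 0.78 in wild type. The pairs in Snhg3, Rack1 and 2410006H16Rik had gaps of at most 0.56 in either IL-4 comparison. Snord35a, between 2.60 and 2.97, and Snora75, between 2.76 and 3.28, lay near the floor of 2.52. Snord33 lay between 4.39 and 5.94. The part of signal in these gaps was not tested.

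Other small RNA genes were set beside the members. Of 296 microRNA genes, 71 could pass the rule in Stat6-/- and 0 rose or fell, where 0.240% of all genes rose and 0.115% fell. Their median difference was -0.07 and 30 were above 0, beside 43.3% of all genes. In wild type 63 could pass, 1 rose and 3 fell, where 2.96% and 6.78% of all genes did, and the median was 0.06. Both small Cajal body RNA genes above the floor were lower with IL-4 in each genotype: Scarna17 had 8.11 against 8.49 in Stat6-/- and 7.35 against 8.42 in wild type, where it fell, and Scarna13 had 3.48 against 3.83 and 3.58 against 3.63. Rnu3a, a U3 snoRNA gene, had 3.06 against 3.27 in Stat6-/- and 3.70 against 3.33 in wild type.

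The 6 structured RNA genes outside the rule of choice had a median of 0.43 in Stat6-/- and 0.20 in wild type, with 0 past the rule. Rpph1, the RNA of RNase P, had 10.33 with IL-4 against 9.87 in medium in Stat6-/- and 10.09 against 10.01 in wild type. Rmrp, the RNA of RNase MRP, had 8.77 against 8.36 in Stat6-/- and 8.52 against 8.31 in wild type. Rprl2, annotated as an RNase P RNA-like gene, had 6.17 against 5.50 and 5.84 against 5.34, and Rprl1 had 4.75 against 4.02 and 4.64 against 4.22. For these 4 the IL-4 arrays lay above the medium arrays. Rn7sk, which holds back transcription elongation, differed by -0.02 in Stat6-/- and -0.10 in wild type, and Terc, the telomerase RNA, had 2.79 against 2.74 and 2.58 against 2.40.

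The proteins of the particles were examined next. All 8 core proteins of box C/D and box H/ACA particles had both Stat6-/- arrays below both wild-type arrays, where 24.7% of all genes did. In Stat6-/- with IL-4 against wild type with IL-4, 4 of the 8 fell, where 4.83% of all genes did: dyskerin, Dkc1, had 2.68 against 4.66, fibrillarin, Fbl, had 5.08 against 6.38, Nhp2 had 4.83 against 6.05 and Nop58 had 3.77 against 4.98. In medium Dkc1 had 2.96 in Stat6-/- against 3.76 in wild type and Fbl had 4.97 against 5.45, and 0 of the 8 passed the rule there. Within wild type all 8 were above 0 with IL-4, with medians of 0.46 for box C/D and 0.67 for box H/ACA proteins, and 0 passed the rule. Within Stat6-/- the medians were 0.09 and -0.21.

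Of 17 factors of snoRNP assembly and maturation, 11 had both Stat6-/- arrays below both wild-type arrays and 0 had them above, where the shares over all genes were 24.7% and 13.4%. Nolc1, a nucleolar phosphoprotein that binds these particles, fell with IL-4 between genotypes, with 4.64 in Stat6-/- against 5.77 in wild type. Tgs1, the enzyme that trimethylates the cap of some snoRNAs, fell in wild type, with 4.59 with IL-4 against 5.75 in medium. Among 33 genes of RNA polymerase I and ribosomal RNA processing, 19 had both Stat6-/- arrays below both wild-type arrays and 0 above, beside the same 24.7% and 13.4%. With IL-4 between genotypes, 6 of the 33 fell and 0 rose, where 4.83% of all genes fell and 4.01% rose. Nop2 had 3.79 in Stat6-/- with IL-4 against 5.40 in wild type with IL-4, and Polr1b, a subunit of RNA polymerase I, had 2.78 against 4.08.

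Ro60, the protein that binds Y RNAs, was lower on both IL-4 arrays, with 4.18 with IL-4 against 5.07 in medium in Stat6-/- and 3.88 against 5.01 in wild type, where it fell. Its Y RNAs Rny1 and Rny3 had their higher values on the same IL-4 arrays. Ssb, the La protein that binds RNA polymerase III transcripts, had 5.33 and 5.31 in Stat6-/- against 5.89 and 6.16 in wild type, with IL-4 first in each. Mvp, the major vault protein, had 6.17 with IL-4 against 6.46 in medium in Stat6-/- and 6.62 against 6.67 in wild type, without the high value on the Stat6-/- array with IL-4 that Vaultrc5 had. Among 6 noncoding host genes above the floor, Gas5 was the 1 with a difference past the rule in a comparison of 2 arrays, with 7.54 in Stat6-/- with IL-4 against 6.22 in wild type with IL-4.

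**Figure D5:**
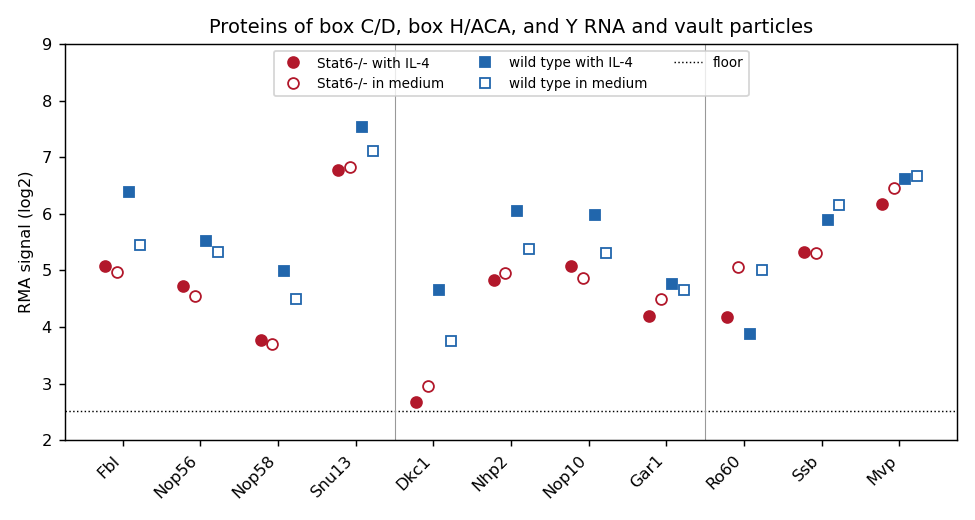
RMA signal (log2) of the core proteins of box C/D particles (left), box H/ACA particles (middle) and Y RNA and vault particles (right) on each array; red circles are Stat6-/- and blue squares wild type, filled with IL-4 and open in medium, and the dotted line is the floor. All 8 snoRNP core proteins have both red circles below both blue squares, and Ro60 has both filled symbols below both open ones.

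Other members above the floor did not pass the rule in any comparison. Snord8 had 4.07 with IL-4 against 3.80 in medium in Stat6-/- and 4.07 against 3.74 in wild type. Snord104, Snord35b, Snord73b and Snora7a stayed within 0.27 of each medium array with IL-4 in both genotypes. Snord49a had 3.60 against 3.73 and 3.27 against 3.84, and Snord49b, from the same host, had 5.51 against 5.08 and 4.79 against 4.86. Snora21 reached the floor on 1 array, Stat6-/- with IL-4, at 2.87. Snora31, Snora62, Snora74a and Snora75 had values between 2.32 and 3.28 on all 4 arrays.

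Under the floor on all arrays were 18 members: Snora20, Snora2b, Snora30, Snora33, Snora41, Snora44, Snora69, Snord118, Snord37, Snord38a, Snord42b, Snord52, Snord53, Snord58b, Snord61, Snord73a, Snord85 and Snord87. Their signals lay between 0.84 and 2.52, and medians of their differences were 0.09 in Stat6-/- and 0.20 in wild type for IL-4 against medium. Above 0 in Stat6-/- were 11 of the 18, 7 of 11 Snord and 4 of 7 Snora genes. Above 0 in wild type were 13 of the 18, all 11 Snord and 2 of 7 Snora genes. The share among all genes under the floor was not counted. No member under the floor could pass the rule, so no change was read from these values. Snora30 and Snord118 each had a second probeset with identical values on all arrays, which counts as 1 measurement, and the second probesets of Snora21, Snora3 and Snord58b gave differences of the same sign in both IL-4 comparisons except Snora21 in wild type (0.16 beside -0.01).

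A further 41 probesets name a Snord or Snora gene together with other genes and were left out of the rule. Of these 11 reached the floor. In Stat6-/- with IL-4 against medium 8 of the 11 were above 0, beside 43.3% of all genes, with a median of 0.29. In wild type 5 of the 11 were above 0, beside 41.1% of all genes, with a median of -0.20. Over the 20 Snord genes above the floor, the median signal was 4.51 in Stat6-/- with IL-4, 4.12 in Stat6-/- in medium, 4.50 on the wild-type array with IL-4 and 4.16 on the one in medium. For the 13 Snora genes it was 3.80 and 3.17 in Stat6-/- and 3.23 and 3.58 in wild type, with IL-4 first. Thus the Snora median was highest on the Stat6-/- array with IL-4, while the Snord medians of both IL-4 arrays were close. Gene by gene, 9 of 12 Snora genes were above 0 in wild type with IL-4 against medium, beside 41.1% of all genes. Their median difference was 0.26, so the median levels in wild type do not follow the differences of single genes. Signals of different probesets are not amounts of RNA, so the classes are not ranked against each other.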

How the data were processed

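Total RNA of 4 samples was labelled and hybridised to whole-transcript arrays. Per the submitters' processing notes, the authors' deposited log2 signals came from the RMA method of Affymetrix Expression Console, which corrects background, normalizes by quantiles and summarises probes. The sources used here give no version, settings or genome build, and the log2 base was read from the range of the values. All columns were mapped to a sample.

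Of 35557 probesets, the platform annotation gave 1 symbol to 21789 and several to 1621, and 12147 were unnamed here. All 54 members matched the RefSeq gene table of GRCm38.p6, used for lengths and hosts. Differences, counts and medians were computed in Python 3.11.15 with pandas 2.3.3. The calculation of the rule of size was checked on simulated data with large planted differences and little noise. That check cannot show how reliable the calls are. The members and gene lists were chosen with earlier results of these data known. Genes named were Rny1, Rny3 and Vaultrc5, members past the rule, the largest and smallest differences and signals, their hosts, and list genes; the remaining members were named after their values were seen. The 9 alternatives, and 1 added later, were normalization, trend removal (lowess fraction 0.3), floors, probeset choice, fold and related members. The values of 1 member and its host are not reported in the text.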

Additional observations from a re-analysis of the deposited data

Results flagged for a closer look

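The IL-4 difference was above 0 in 1 genotype and below 0 in the other for 14 of the 36 members above the floor. With 1 array per group the difference between genotypes was not tested, and most of these values lie under 2-fold. In 11 the difference was above 0 in Stat6-/- and below 0 in wild type, as for 20.1% of all genes above the floor, and in 3 it was the reverse, as for 18.7%. The gap between both IL-4 effects, Stat6-/- minus wild type on the log2 scale, was 1.63 for Snora70, 1.24 for Vaultrc5, 1.20 for Snord95, 1.07 for Snord14e, 0.82 for Snord96a, 0.78 for Snora31, 0.63 for Snora75, 0.53 for Snora21, 0.51 for Snord49b, 0.37 for Snord35b and 0.31 for Snord104. Snord95 and Snord96a share the host Rack1. Snora21 differed by -0.01 in wild type between signals under the floor, and its second probeset differed by 0.16 there, so its direction in wild type is not settled. The 3 with the reverse order had gaps of -0.71 for Snora74a, -0.37 for Snora62 and -0.35 for Snora7a.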

How the results depend on the processing

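No paired analysis was possible because each group holds 1 array. Medians are called close when within 0.1 and counts when within 1.5 times. Shares of all genes that rose or fell were counted at the main settings only, at 2-fold and 1.5-fold. The count that rose in Stat6-/- with IL-4 ran from 5 to 8 over 9 alternatives at 2-fold and 0 fell in each. It was 16 at 1.5-fold, where 2.94% of all genes rose. At 1.5-fold, 8 rose and 3 fell in wild type with IL-4, 4 fell in Stat6-/- against wild type in medium, 6 rose and 2 fell with IL-4 between genotypes, and 11 were higher and 2 lower in the difference of effects. With the floor at the 75th percentile (4.65), the Snord and Snora medians and their gap were 0.99, 0.79 and 0.21 for IL-4 in Stat6-/-. In wild type they were 0.27 and 0.49, and 1 member rose. Between genotypes the Snord median was -0.29 with a gap of -0.36 in medium, where 0 fell, and with IL-4 the medians and gap were 0.31, 0.47 and -0.16. For the difference of effects they were 0.51 and 0.32, with 2 higher and 0 lower.

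With no floor the Snord median was 0.32 in Stat6-/- and 0.21 in wild type, where the Snora median was 0.11 and the gap turned to 0.10. For the difference of effects the Snord median was then 0.12 and the gap -0.016. With signals raised to the floor the Snord median in Stat6-/- was 0.30 with a gap of -0.044, and 0 fell between genotypes in medium, as with the floor on the mean over the arrays. Quantile normalization applied again gave 5 that rose in wild type, medians there of 0.29 for Snord and 0.37 for Snora, 2 that rose with IL-4 between genotypes, and medians of 0.19 and 0.0061 for the difference of effects. Removal of the intensity trend gave 5 and 2, a Snord median of 0.30 and a gap of -0.027 in wild type, and a Snora median of 0.022 for the difference of effects. With 1 member per number, the wild-type Snord median was 0.27 with a gap of 0.0068, and for the difference of effects the Snora median was 0.28 and the gap 0.030. The other 186 values were close to those reported. The cause of these shifts was not tested. With IL-4 between genotypes the gap was -0.023 and ran up to 0.074. The gap between both classes thus kept its sign under all alternatives run in 1 comparison, genotype in medium, and the number of arrays limits all values.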
